A study of Mus musculus with 10 samples.

Results

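The mouse replication-dependent histone genes were followed as a family through all 10 RNA libraries of a study of Strap, which encodes a WD40-repeat protein linked to the spliceosome. Members were the rows of the expression table with a gene name that began with Hist1h, Hist2h, Hist3h or Hist4h. This gave 69 rows with 70 gene names among 46955 rows. They comprised 6 rows of the linker histone H1, 19 of H2A, 18 of H2B, 11 of H3, 13 of H4, 1 row that merged an H2A gene with an H3 gene, and 1 named pseudogene. The annotation gave 67 of the names as protein coding and 3 as pseudogenes. By name, 56 rows belonged to Hist1 on chromosome 13, 9 to Hist2 on chromosome 3 and 3 to Hist3 on chromosome 11, and Hist4h4 stood alone on chromosome 6.

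Strap knockout (KO, Strap-/-) and wild-type (WT) embryoid bodies (EBs) were sampled at day 9, with 2 libraries of each genotype. WT whole embryos were sampled at embryonic days 9.0 (E9.0) and 8.0 (E8.0), with 2 libraries of each stage, each from pooled embryos. KO and WT embryonic stem cells (ESCs) gave 1 library each. All samples carried the strain label C57BL/6. The ESC lines came from blastocysts of intercrossed heterozygotes of a zinc finger nuclease allele and were grown on feeder cells, and the EBs were cell aggregates of those lines, grown without LIF and then in N2B27 medium with bFGF, so that culture and lines cannot be told apart from material. Nothing in the labels ties the 2 libraries of a group to separate cultures, so p-values measure only the spread between these libraries.

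A dividing cell makes these histones in S phase, when newly copied DNA has to be packed into nucleosomes of H2A, H2B, H3 and H4 and bridged by H1. Their genes lie in clusters in many near-identical copies, mostly without introns. Their mRNAs end in a stem-loop and not in a poly(A) tail. The stem-loop is bound by SLBP, the U7 snRNP directs the cut behind it, and the mRNA is degraded when DNA synthesis stops. RNA for these libraries was depleted of ribosomal RNA and not selected for poly(A), so mRNAs without a tail were kept.

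The stem-loop is the feature that the family shares beyond its names, and its letters are shown for that reason. A stem of 6 bases that begins with GG, with full pairing around a loop of TTTN, was found behind the stop codon of 43 of the 70 gene names in the GENCODE transcripts of GRCm38. Of 24 coding names with none, 13 had gene models that end at the stop codon, so the window held no letters to search. The 43 stem-loops were of 6 kinds, each printed for 1 member with the stem-loop in capitals.
Hist1h1e: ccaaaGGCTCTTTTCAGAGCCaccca
Hist1h3e: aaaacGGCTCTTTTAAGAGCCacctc
Hist2h2ac: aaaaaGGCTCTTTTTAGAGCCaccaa
Hist1h4d: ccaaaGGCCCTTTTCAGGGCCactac
Hist2h4: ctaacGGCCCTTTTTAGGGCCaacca
Hist1h4j: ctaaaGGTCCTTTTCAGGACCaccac
The kind of Hist1h1e was the commonest and stood in 25 members of the H1, H2A, H2B and H3 classes. The kind of Hist1h3e was in 6 members, and that of Hist2h2ac in 1. The kinds of Hist1h4d (7 members), Hist2h4 (2 members) and Hist1h4j (2 members) were found only in H4 genes among these 43.

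Many members lie head to head and share the DNA between their starts. In the annotation, 12 H2A genes started within 500 bases of an H2B gene on the opposite strand, at distances of 176 to 306 bases. RefSeq (GRCm38.p6) gave a promoter of 250 bases before and 50 bases after the start for 62 of 67 coding names. The CCAAT box (CCAAT, either strand) was in 53 of the 62, or 85.5%, against 37.9% of all 27025 promoters of the same length. The TATA box (TATAAA, either strand) was in 56.5% against 14.2%. The octamer (ATTTGCAT, either strand), the letters read by the factor Oct-1, was in 13 of the 62, or 21.0%, against 1.75%. All 13 octamers were in promoters of 7 H2A and 6 H2B genes, while CCAAT was in every matched H1, H2A, H2B and H3 promoter and in 3 of 12 H4 promoters. These are matches of letters and not tested sites. Promoters of 4 genes to which the values below return are printed with all such matches in capitals: chr13:23934107-23934406 on the minus strand, chr13:23571150-23571449 on the plus strand, chr13:21780576-21780875 on the minus strand and chr13:21750504-21750803 on the minus strand. The Hist1h2ba window also covers most of the promoter of its H2A partner Hist1h2aa, and that of Hist1h2bg most of the promoter of Hist1h2ae.
Hist1h2ba: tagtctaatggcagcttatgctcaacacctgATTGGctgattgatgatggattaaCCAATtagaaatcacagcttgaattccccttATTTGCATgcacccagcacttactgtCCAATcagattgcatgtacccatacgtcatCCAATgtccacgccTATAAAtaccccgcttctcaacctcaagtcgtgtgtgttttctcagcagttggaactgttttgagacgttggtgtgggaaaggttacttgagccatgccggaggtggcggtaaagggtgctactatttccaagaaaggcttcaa
Hist1h2bg: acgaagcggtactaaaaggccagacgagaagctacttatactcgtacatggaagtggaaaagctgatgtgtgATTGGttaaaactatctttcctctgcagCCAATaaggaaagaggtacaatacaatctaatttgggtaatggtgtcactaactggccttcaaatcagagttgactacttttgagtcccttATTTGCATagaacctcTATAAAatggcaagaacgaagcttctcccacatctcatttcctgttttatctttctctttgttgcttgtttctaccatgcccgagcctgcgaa
Hist1h1b: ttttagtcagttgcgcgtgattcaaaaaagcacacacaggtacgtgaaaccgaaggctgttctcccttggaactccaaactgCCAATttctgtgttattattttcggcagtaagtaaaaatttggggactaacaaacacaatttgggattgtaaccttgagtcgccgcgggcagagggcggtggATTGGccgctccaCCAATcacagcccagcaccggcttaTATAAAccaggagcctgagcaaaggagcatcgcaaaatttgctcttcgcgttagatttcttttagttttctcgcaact
Hist1h4k: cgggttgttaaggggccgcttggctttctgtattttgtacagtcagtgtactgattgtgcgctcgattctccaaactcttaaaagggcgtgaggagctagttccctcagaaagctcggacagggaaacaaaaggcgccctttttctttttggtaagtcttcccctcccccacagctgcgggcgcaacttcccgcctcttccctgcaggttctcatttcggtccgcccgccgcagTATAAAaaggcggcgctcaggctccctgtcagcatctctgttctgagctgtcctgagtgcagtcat
Hist1h2ba and Hist1h2bg hold CCAAT, the octamer and TATAAA together, Hist1h1b holds CCAAT and TATAAA, and Hist1h4k holds TATAAA alone.

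Expression was given as FPKM, fragments per kilobase of transcript, scaled to the size of the library. Levels of different genes can be set side by side only as far as the gene models match the mRNAs. In the GENCODE transcripts used here, that of Hist1h1d ran 4884 bases past its stem-loop, while 13 ended at the stop codon. Ranks and shares of members may depend on these lengths, which was not tested. The number of reads behind a value is unknown. Each library had between 12881 and 13886 rows at FPKM of at least 1. Rows of ribosomal RNA type took 14.6% of all FPKM in WT EB 1 and between 0.0298% and 6.81% in the other 9 libraries. Strap itself was at 8.48 and 11.3 FPKM in KO EBs, against 49.7 and 47.2 in WT EBs, and at 14.5 in KO ESCs, against 68.7 in WT ESCs. Median absolute differences between replicates over tested rows were 0.271 (KO EBs), 0.252 (WT EBs), 0.109 (E9.0) and 0.10 (E8.0) on the log2(FPKM + 1) scale, so that replicates lay closer together in embryos. The summed level of 6 ESC markers was 220 to 734 FPKM in EBs, 27.0 to 32.4 in embryos and 1362 to 1385 in ESCs. That of 6 neuroectoderm markers was 31.3 to 67.1 in EBs, 78.9 to 114 in embryos and 8.82 to 9.15 in ESCs. The neuroectoderm marker Sox1 was at 9.33 and 8.57 FPKM in KO EB 1 and WT EB 1, but at 1.19 and 2.35 in KO EB 2 and WT EB 2, so that the 2 EB replicates of either genotype stood apart.

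Histone mRNA was abundant in all samples, and its order among members was alike. Of the 69 rows, 58 were at FPKM of at least 1 in every library and 23 at FPKM of at least 100 in every library, while 4 were under 1 in all of them. Hist1h4d, an H4 gene, was the highest member in each library, from 903 FPKM in KO ESCs to 3194 in E9.0 embryo 2. The 5 highest members made 27.7% to 40.0% of the summed histone FPKM. Spearman's rho between libraries over the 69 rows ran from 0.944 to 0.995, as a description. Only 41 rows had at least 50% of their 75-base windows unique among annotated transcripts. For the others, fragments may have been shared out among near-identical copies, and their single values are uncertain.

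The summed level of the family differed between materials. It was 16839 and 16323 FPKM in KO EBs and 11916 and 13554 in WT EBs, 30018 and 29620 in E9.0 embryos and 20756 and 22483 in E8.0 embryos, and 8821 in KO ESCs and 8113 in WT ESCs. E9.0 embryos stood highest and ESCs lowest, and no 2 groups overlapped. H4 made 29.6% to 33.8% of the sum in EBs, 32.7% to 35.0% in embryos and 27.3% to 29.5% in ESCs. H3 made 21.6% to 23.9% in EBs, above the 19.1% to 19.7% of embryos and the 18.5% to 18.6% of ESCs. H1 made 12.9% to 14.9% in EBs and 13.3% to 14.6% in embryos, against 22.3% to 23.9% in ESCs. These shares are descriptions and were not tested.

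**Figure D1:**
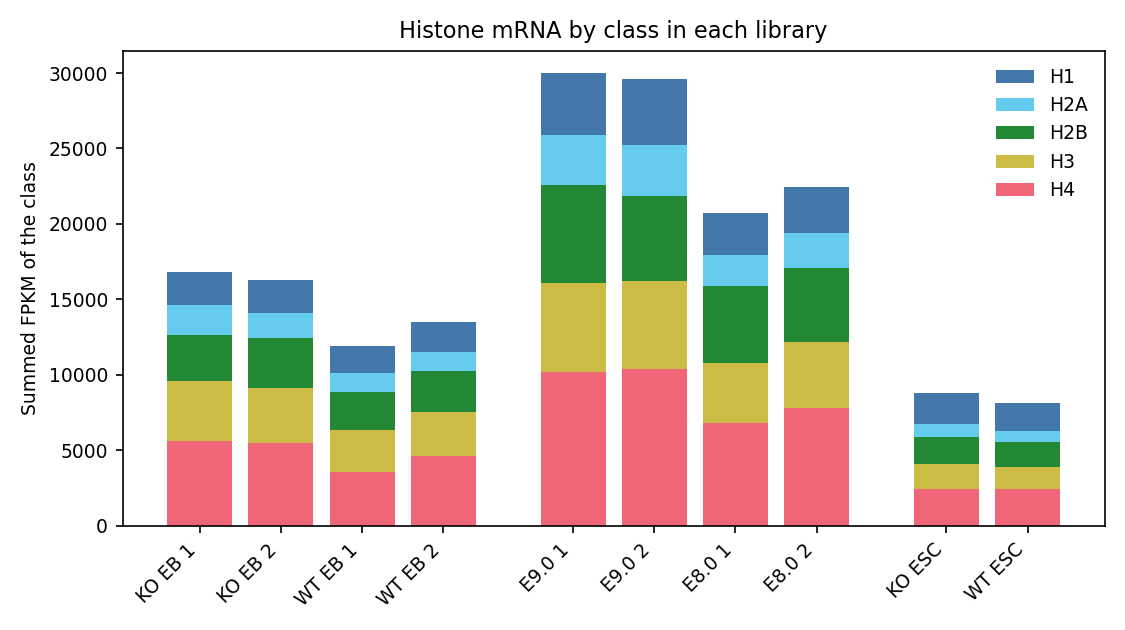
Summed FPKM of the histone genes of each class (stacked, vertical axis, from 0) in each of the 10 libraries (horizontal axis). E9.0 embryos reached 30018 and 29620 FPKM over all members, E8.0 embryos 20756 and 22483, WT EBs 11916 and 13554, and WT ESCs 8113.

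To see how histone mRNA changed at the onset of organ formation, E9.0 embryos were set against E8.0 embryos. Most of the family was higher at E9.0. With limma on log2(FPKM + 1) and Benjamini-Hochberg adjustment over 15160 tested rows, 38 of 64 tested members rose and 1 fell at an adjusted p under 0.05, against 13.7% of all tested rows that rose and 12.0% that fell. The median change of members was 0.42 on the log2 scale, against 0 over all rows, and 56 of 64 were positive, against 49.5% of all rows, while 7 were negative, against 49.9%. In 48 members both E9.0 libraries lay above both E8.0 libraries, which held for 33.2% of all rows, and in 3 both lay below, against 33.0%. By class, 5 of 6 H1, 9 of 16 H2A, 5 of 16 H2B, 9 of 11 H3 and 10 of 13 H4 members rose. In sums, H2A was 1.52-fold, H1 1.44-fold and H2B 1.21-fold of the E8.0 level, and all members together were 1.38-fold. As a share of all FPKM without the rows of ribosomal RNA type, the family was at 5.20% and 5.14% at E9.0, against 3.98% and 4.10% at E8.0. The lead of E9.0 embryos was smaller on this scale than in summed FPKM. Whether more cells in S phase or more histone mRNA per cell lies behind a level cannot be told apart in bulk samples.

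Hist1h1b encodes H1.5, a linker histone of dividing cells. It was at 933 and 873 FPKM in E9.0 embryos, against 400 and 462 in E8.0 embryos. The groups lay well apart, with a log2 change of 1.07 ± 0.10 (SE, adjusted p = 0.000887, limma), the highest among H1 genes. Hist2h4, an H4 gene of the Hist2 cluster with fully unique windows, was at 248 and 242 FPKM at E9.0, against 128 and 126 at E8.0. Its replicates differed by a few FPKM only, and the change was 0.94 ± 0.06 (SE, adjusted p = 0.000184, limma). Hist1h4k, whose windows were 31.9% unique, was at 1069 and 631 FPKM at E9.0, against 331 and 413 at E8.0. Both E9.0 values were higher, but they differed from each other more than the E8.0 values did, and the change was 1.15 ± 0.26 (SE, adjusted p = 0.0166, limma). Its call was lost with one common spread (adjusted p = 0.182) and with only the embryo libraries (0.0714), and of the 4 fits without 1 embryo library it was kept only without E9.0 replicate 2 (0.0106).

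Among H2A genes, Hist1h2ae was at 209 and 167 FPKM at E9.0, against 90.3 and 103 at E8.0 (log2 change 0.95). Hist2h2ab was at 57.8 and 57.9 FPKM at E9.0, against 30.2 and 31.7 at E8.0 (log2 change 0.88). Hist1h2ai was at 43.6 and 55.0 FPKM at E9.0, against 26.2 and 24.8 at E8.0 (log2 change 0.91), with 10.7% of its windows unique. These 3 rose without overlap of the stages. The one row that fell merged Hist2h2aa1 and Hist2h3c1, a low row at 2.17 and 2.03 FPKM at E9.0, against 4.79 and 4.51 at E8.0 (log2 change -0.87, adjusted p = 0.00207, limma). With 11.1% of its windows unique, it cannot be given to either gene.

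Some abundant members did not pass the test. Hist1h4d was at 2722 and 3194 FPKM at E9.0, against 1964 and 2379 at E8.0, and missed the threshold (log2 change 0.45, adjusted p = 0.0541, limma). The merged row of Gm42743 and Hist2h2bb, the highest H2B row, was at 1473 and 1615 FPKM at E9.0, against 1372 and 1555 at E8.0. These overlapped, with a log2 change of 0.079. Hist1h1e, the H1.4 gene, was at 947 and 977 FPKM at E9.0, against 776 and 864 at E8.0 (log2 change 0.23, adjusted p = 0.109, limma). The share of H1 mRNA due to Hist1h1b was 22.7% and 20.2% at E9.0, against 14.5% and 15.0% at E8.0, and that of Hist1h1e was 23.1% and 22.6%, against 28.0% and 28.1%. Fewer members rose without E8.0 replicate 1 or without E8.0 replicate 2, and fewer of all rows were called as well. With 1 library left out, the median change of members ran from 0.40 to 0.46. The count of members that rose was 6 in a fit that gave EBs and embryos 1 common spread, for which the share of all rows is not given here. Feeder-type mesenchyme markers, 5 of 6 of which were in the table, summed to 143 to 210 FPKM at E9.0, against 34.4 to 57.9 at E8.0. Neuroectoderm markers summed to 110 to 114 FPKM at E9.0, against 78.9 to 79.3 at E8.0. The 7 embryo lineage markers summed to 1794 to 2894 FPKM at E9.0, against 648 to 1138 at E8.0. Of these 7, 2 were higher and 5 lower in both E9.0 libraries, and Hbb-bh1, the embryonic globin gene, alone was at 2708 and 1641 FPKM at E9.0, against 395 and 892 at E8.0. The part of these markers in the result was not tested.

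**Figure D2:**
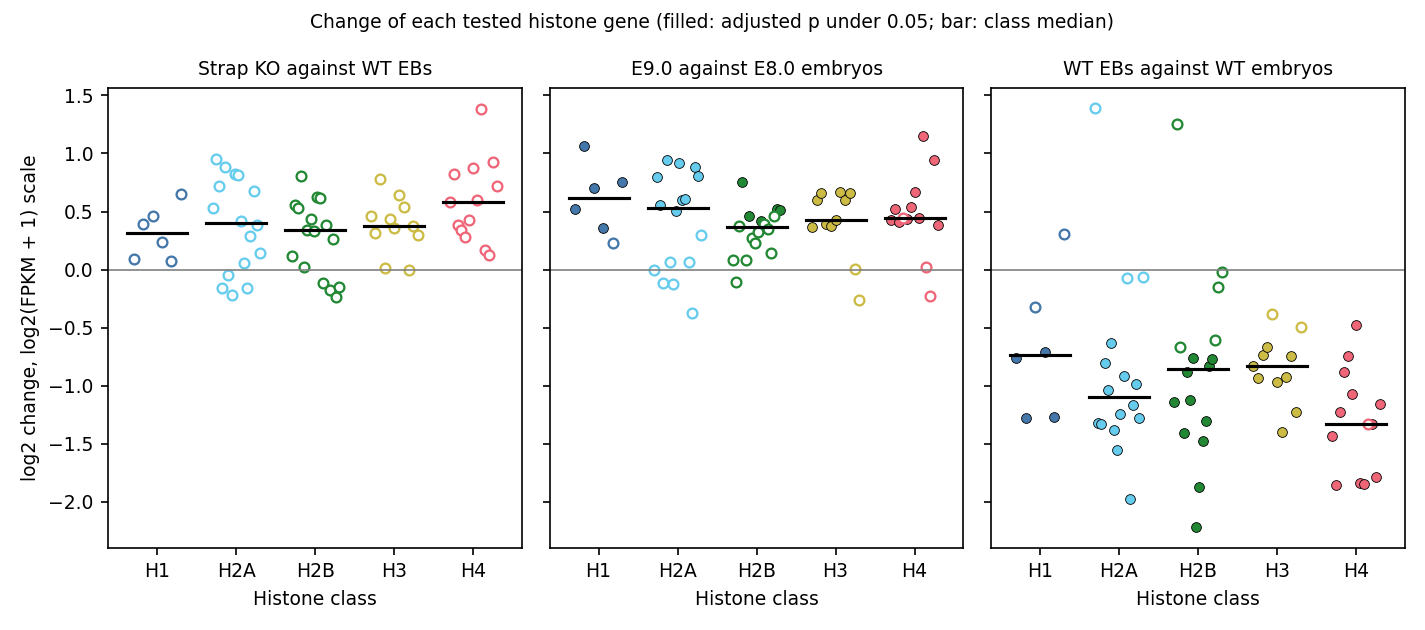
Change of each tested member on the log2(FPKM + 1) scale (vertical axis) by histone class (horizontal axis) in the 3 tested comparisons. Filled points passed an adjusted p under 0.05 (limma) and bars are class medians. No member is filled for KO against WT EBs, 38 are filled above 0 for E9.0 against E8.0, and 49 are filled below 0 for WT EBs against embryos (the merged H2A and H3 row, which fell at E9.0, and the pseudogene are not drawn).

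The genes that make, process and use histone mRNA were followed in lists chosen with earlier results of these data known. The counts of each list stand beside 13.7% of all tested rows that rose and 12.0% that fell at E9.0. Of 25 tested S phase genes, 5 rose and none fell, with a median change of 0.037. Those that rose included Clspn, a checkpoint adaptor at forks (0.58), Rrm1, a subunit of ribonucleotide reductase (0.33), and Fen1, the flap nuclease (0.31). Of 9 genes of histone transcription, 1 rose and 4 fell, among them Npat, the cyclin E-Cdk2 substrate that drives histone transcription (-0.50), and Ccne2, a cyclin E (-0.60). Of 14 genes of histone mRNA 3′ end processing, Lsm11 of the U7 snRNP (0.50) and Snrpb (0.39) rose and Zfp473 (-0.64) fell. The stem-loop binding protein gene Slbp, named here after its values were seen, was at 68.1 and 67.7 FPKM at E9.0, against 62.5 and 72.9 at E8.0, so the stages overlapped. Of 7 decay genes none passed the test in limma, with 1 at an unadjusted p under 0.05. Of 9 histone chaperone genes 2 rose and 1 fell. Of 19 mitosis genes 1 rose and 1 fell. Of 7 genes of CDK inhibitors 3 rose and 1 fell.

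Replication-independent histone variants are made outside S phase as well, and most of their mRNAs carry a poly(A) tail. Of 10 tested, 5 rose and none fell at E9.0, against 13.7% and 12.0% of all rows. H2afj rose by 0.78, H2afx by 0.56, H1f0 by 0.47, H2afy by 0.46 and Cenpa, the centromeric H3, by 0.22 on the log2 scale. Their median change was 0.28.

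To see whether the family responds to loss of Strap, KO EBs were set against WT EBs. No member passed the test: 0 of 64 rose and 0 fell at an adjusted p under 0.05 in limma, against 0.0198% and 0.119% of all rows. A limma fit that gave EBs and embryos 1 common spread called 8 members higher, among them Hist2h4 (adjusted p = 0.0178) and Hist1h2ah (adjusted p = 0.0302). Earlier simulated EB data gave many false calls with 1 common spread, so that fit was not the main one. Its share over all rows is not given here, so the 8 cannot be set against it. In the main fit, 16 were higher and 0 lower at an unadjusted p under 0.05, against 8.07% and 5.75% of all rows. The values leaned towards KO all the same. The log2 change was positive in 53 of 64 members, against 51.8% of all rows, and the median was 0.38, against 0.015 over all rows. In 37 members both KO libraries lay above both WT libraries, against 25.8% of all rows, and in 4 below, against 20.9%. All 13 H4 and all 6 H1 members were positive, with medians of 0.58 and 0.32. The 3 rows of the Hist3 cluster had a median of -0.15.

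The summed level was 1.30-fold in KO EBs over WT EBs. It was 1.41-fold for H2A, 1.37-fold for H4, 1.33-fold for H3, 1.23-fold for H2B and 1.16-fold for H1. As a share of all FPKM without the rows of ribosomal RNA type, the family was at 2.40% and 2.47% in KO EBs, against 2.12% and 2.30% in WT EBs. With means of 2.44% and 2.21%, the lead of KO EBs was smaller on this scale than in summed FPKM. Within replicate number 1 the median of KO minus WT was 0.45 with 51 of 64 members positive, and within replicate number 2 it was 0.33 with 50 positive. Quantile normalization lowered the median change to 0.18 and turned the changes of Hist1h1a, Hist1h1d and Hist1h1e below 0.

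Hist2h4 came nearest to the threshold. It was at 104 and 89.2 FPKM in KO EBs, against 47.8 and 52.8 in WT EBs (log2 change 0.92 ± 0.14, SE, adjusted p = 0.0875, limma). Hist1h4k had the largest change among all members. It was at 313 and 508 FPKM in KO EBs, against 111 and 207 in WT EBs (log2 change 1.39 ± 0.60, SE, adjusted p = 0.366, limma). KO values were above WT values for both genes, but the replicates of Hist1h4k differed widely in either genotype.

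Further H2A members had KO values above WT values. Hist1h2ab was at 329 and 282 FPKM in KO EBs, against 152 and 161 in WT EBs (log2 change 0.95, adjusted p = 0.295, limma). Hist1h2ae was at 125 and 117 FPKM in KO EBs, against 58.8 and 71.7 in WT EBs (log2 change 0.89, adjusted p = 0.248, limma). The solitary Hist4h4 was at 25.4 and 36.3 FPKM in KO EBs, against 15.5 and 21.0 in WT EBs. Its genotypes did not overlap either, and the adjusted p was 0.251 (limma).

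Other members were alike in level between genotypes or mixed. Hist1h4d was at 1897 and 1594 FPKM in KO EBs, against 1164 and 1617 in WT EBs, so the genotypes overlapped. Hist1h1a, the H1.1 gene, was at 527 and 602 FPKM in KO EBs, against 445 and 630 in WT EBs. Hist3h2ba was at 52.5 and 59.6 FPKM in KO EBs, against 59.6 and 64.5 in WT EBs. None of these 3 comparisons passed the test, with log2 changes of 0.34, 0.089 and -0.15.

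The summed ESC markers were at 510 to 734 FPKM in KO EBs, against 220 to 473 in WT EBs, and the 7 markers of embryo lineages at 11.2 to 13.4, against 35.1 to 66.9. Both KO EBs lay above both WT EBs for 2 of the 6 ESC markers, Pou5f1 and Klf4, and below for 0. For embryo lineages they lay below for 5 of the 7 and above for 0. The markers of embryo lineages included Hbb-bh1, listed at 0 in both KO EBs and in WT EB 2 and at 1.86 FPKM in WT EB 1. Mitochondrial rows took 3.41% and 3.52% of all FPKM in KO EBs, against 5.70% and 6.62% in WT EBs, without overlap. The part of these in the result was not tested. None of the companion genes passed the test here either. By list, unadjusted p was under 0.05 for 1 of 14 processing genes, 2 of 9 transcription genes, 2 of 7 decay genes, 1 of 9 chaperones, 3 of 10 variants, 2 of 25 S phase genes, 1 of 19 mitosis genes and 3 of 7 CDK inhibitors. In all this was 15 of 100 genes, against 13.8% of all rows in either direction. The variant H2afj was at 47.0 and 69.8 FPKM in KO EBs, against 14.7 and 19.3 in WT EBs (log2 change 1.71, adjusted p = 0.148, limma). The median of S phase genes was 0.0087, and that of variants 0.16.

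To see how EBs compare with the embryo, WT EBs were set against the WT embryos of both stages. Histone mRNA was lower in WT EBs. Of 64 tested members 49 fell and 0 rose in limma, against 20.3% and 23.9% of all rows. At an unadjusted p under 0.05, 0 members were higher, against 28.7% of all rows. The median change was -0.95, against 0.052 over all rows, and 54 members had both WT EB values under all 4 embryo values, against 29.6% of all rows. The summed level in WT EBs was 0.495 of that in embryos, from 0.461 for H4 to 0.576 for H3. By class, 4 of 6 H1, 13 of 16 H2A, 11 of 16 H2B, 9 of 11 H3 and 12 of 13 H4 members fell. Fewer members passed the test without WT EB replicate 1 or without WT EB replicate 2, and fewer of all rows were called as well. With 1 library left out, the median change of members ran from -1.06 to -0.91. Summed embryo lineage markers were at 35.1 to 66.9 FPKM in WT EBs, against 648 to 2894 in embryos, where Hbb-bh1 alone was at 395 to 2708. Of these 7 markers, 6 were lower and 1, Foxa2, was higher in both WT EBs than in all embryo libraries. The part of these markers was not tested.

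Hist1h2bh, an H2B gene, fell most. It was at 47.9 and 61.9 FPKM in WT EBs, against 307 and 252 in E9.0 embryos and 256 and 220 in E8.0 embryos (log2 change -2.22 ± 0.21, SE, adjusted p = 0.000550, limma). Hist1h2an was at 25.8 and 29.6 FPKM in WT EBs, against 94.8 and 138 at E9.0 and 106 and 113 at E8.0, with 15.4% of its windows unique (log2 change -1.98). Hist1h2bj was at 121 and 143 FPKM in WT EBs, against 617 and 473 at E9.0 and 458 and 406 at E8.0 (log2 change -1.87). EB and embryo values of these genes did not overlap.

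Of the H4 genes, Hist1h4b was at 82.5 and 144 FPKM in WT EBs, against 494 and 457 at E9.0 and 302 and 363 at E8.0 (log2 change -1.85). Hist1h4j was at 67.3 and 96.4 FPKM in WT EBs, against 359 and 320 at E9.0 and 239 and 258 at E8.0 (log2 change -1.84). Hist1h4k, given above, had a change of -1.85. All 3 fell, but the call of Hist1h4k was lost without WT EB replicate 1 (adjusted p = 0.177, limma) and without WT EB replicate 2 (0.0812).

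The other 15 members did not pass the test for a fall. In the Hist3 cluster, the 3 rows had changes of -0.021 (Hist3h2ba), -0.061 (the row of Hist3h2a and Trim17) and -0.024 (the pseudogene Hist3h2bb-ps), and their cluster sum in WT EBs was 0.961 of that in embryos. Hist3h2ba was at 59.6 and 64.5 FPKM in WT EBs, against 72.6 and 77.9 at E9.0 and 58.8 and 47.0 at E8.0, so that WT EB values lay within the embryo range. Hist1h1c, the H1.2 gene, was at 215 and 263 FPKM in WT EBs, against 409 and 356 at E9.0 and 209 and 261 at E8.0. It did not pass the test (log2 change -0.33, adjusted p = 0.228, limma).

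The counts of companion genes stand beside 20.3% of all rows that fell and 23.9% that rose in WT EBs. Among companion genes, 15 of 25 S phase genes fell and 1 rose, with a median of -0.48. Fen1 (-1.17), Uhrf1, the maintenance factor of DNA methylation (-0.96), and Rrm2 (-0.79) had the lowest p. Of 19 mitosis genes 5 fell and 4 rose, with a median of -0.0022. Of 9 chaperones 6 fell, including Chaf1a of the CAF-1 complex (-0.97), and Hat1, the histone acetyltransferase, rose (1.00). Of 14 processing genes 5 fell, including Snrpb (-1.09) and Sympk (-0.77), and Zfp473 rose (1.37). Of 9 transcription genes 2 fell, the cyclin E genes Ccne1 (-1.20) and Ccne2 (-0.97), and 2 rose, Npat (0.81) and Hinfp (0.42). Of 7 CDK inhibitors 4 rose, with Cdkn1a, the p21 gene, at 62.9 and 54.4 FPKM in WT EBs, against 7.29 and 7.16 at E9.0 and 5.55 and 5.42 at E8.0. Of 10 variants 4 fell, and of 7 decay genes 2 rose.

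In the ESC pair, with 1 library a genotype and no test, ratios of members spread to either side. The median log2 ratio of KO over WT was 0.12 over 61 members, against -0.016 over all rows compared, with 39 higher and 22 lower in KO, against 48.2% and 51.8% of all rows. On the log2(FPKM + 1) scale, 3 members were at least 1.5-fold higher and 3 at least 1.5-fold lower in KO, against 8.66% and 10.0% of all rows. Among members at FPKM of at least 5 in either library, the highest ratios were those of Hist1h2ai (15.3 FPKM in KO, 5.49 in WT), Hist1h2bl (90.2 in KO, 48.3 in WT) and Hist1h2ac (55.2 in KO, 37.2 in WT). The lowest were those of Hist1h2ah (4.18 in KO, 8.92 in WT), Hist1h1t, the testis H1 gene (4.64 in KO, 8.70 in WT), and Hist1h4m (23.2 in KO, 32.9 in WT). Of these 6, Hist1h2ac and Hist1h1t have mostly unique windows and the other 4 do not. The members past 1.5-fold were Hist1h2ai, Hist1h2bl and the annotated pseudogene Hist1h2al (1.15 FPKM in KO, listed at 0 in WT) upwards, and Hist1h2ah, Hist1h1t and the merged row of Hist2h2aa1 and Hist2h3c1 (1.1 in KO, 2.65 in WT) downwards, the low ones named for this count.

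ESCs held less of most histone mRNAs than the EBs made from them. All 4 EB values lay above both ESC values in 47 of 64 members, against 25.8% of all rows, and below in 4, against 21.5%. The summed level of EBs was 1.88-fold of that of ESCs in KO and 1.57-fold in WT. The folds were closer together as shares of all FPKM without the rows of ribosomal RNA type. These shares were 2.40% and 2.47% in KO EBs, against 1.62% in KO ESCs. They were 2.12% and 2.30% in WT EBs, against 1.49% in WT ESCs. Hist3h2ba stood out with 52.5 and 59.6 FPKM in KO EBs and 59.6 and 64.5 in WT EBs, against 3.92 in KO ESCs and 4.78 in WT ESCs. The Hist3 cluster sum was 5.34-fold in KO and 5.48-fold in WT, against 1.28-fold and 1.03-fold for the Hist2 cluster. Most of the Hist2 sum was the merged row of Gm42743 and Hist2h2bb, at 712 of 965 FPKM in KO ESCs and 743 of 997 in WT ESCs. Its log2 ratio of EBs over ESCs was 0.054 in KO and -0.13 in WT, while every other tested Hist2 row had a positive ratio in both genotypes. Feeder-type markers summed to 13.3 to 34.7 FPKM in EBs, against 267 to 282 in ESCs, and their part was not tested. No test was made, because a group of ESCs has 1 library.

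H1 was the exception among classes, with a summed level of EBs 1.04-fold of ESCs in both genotypes. Hist1h1a was at 527 and 602 FPKM in KO EBs and 445 and 630 in WT EBs, against 821 in KO ESCs and 776 in WT ESCs, and was thus lower in every EB library. Hist1h1e went the other way, with 437 and 342 FPKM in KO EBs and 413 and 327 in WT EBs, against 175 in KO ESCs and 153 in WT ESCs. Hist1h1a made 24.3% to 31.6% of H1 mRNA in EBs, against 38.9% and 42.9% in ESCs, and Hist1h1e made 15.6% to 23.3%, against 8.28% and 8.47%. Hist1h1d, the H1.3 gene, was at 593 and 518 FPKM in KO EBs and 474 and 465 in WT EBs, against 646 in KO ESCs and 452 in WT ESCs.

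**Figure D3:**
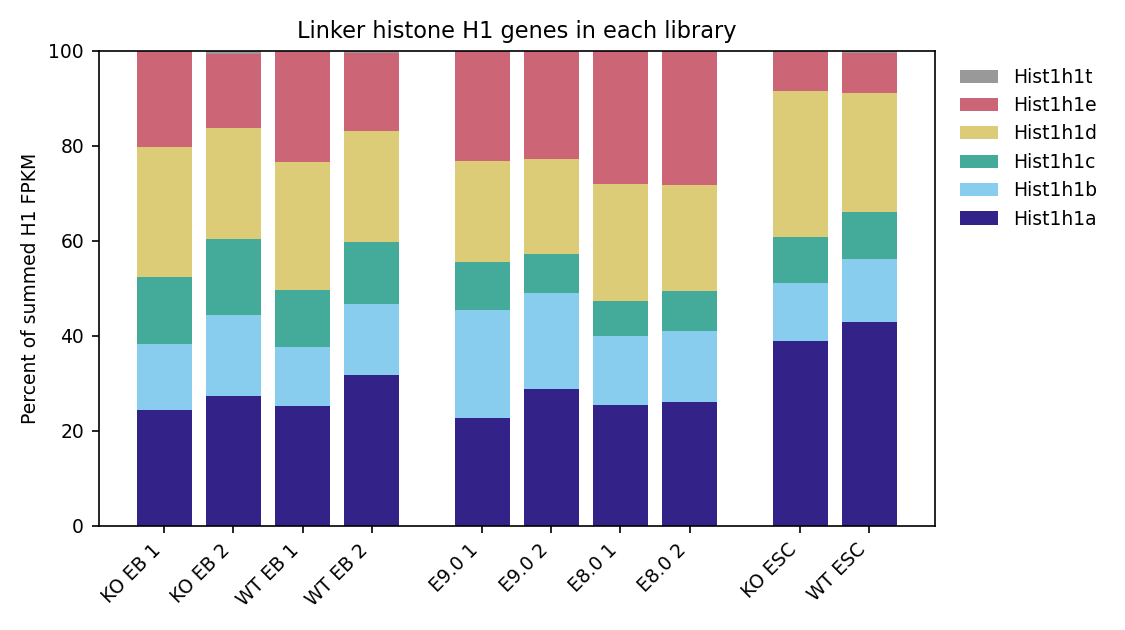
Percent of summed H1 FPKM (vertical axis) contributed by each of the 6 H1 genes in each library (horizontal axis). Hist1h1a makes 38.9% and 42.9% in ESCs and at most 31.6% elsewhere, Hist1h1e makes 28.0% and 28.1% in E8.0 embryos and 8.28% and 8.47% in ESCs.

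One divergent pair ran against most of the family, and it was picked out after its values were seen. Hist1h2aa and Hist1h2ba, known as testis-type H2A and H2B genes, start 306 bases apart on opposite strands, with the promoter printed above between them. Hist1h2aa was at 0.493 and 8.53 FPKM in KO EBs, 0.436 and 3.77 in WT EBs, listed at 0 in all 4 embryo libraries, and at 18.8 in KO ESCs and 15.0 in WT ESCs. Hist1h2ba was at 0.758 and 7.61 FPKM in KO EBs, 0.446 and 3.86 in WT EBs, at most 0.329 in embryos, and at 12.4 in KO ESCs and 8.52 in WT ESCs. Both were highest in ESCs and higher in EB replicate 2 than in EB replicate 1 of either genotype, the same replicates in which Sox1 was low. Neither passed the test between WT EBs and embryos (log2 changes 1.39 and 1.26). Over the 10 libraries Pearson's r of their log2(FPKM + 1) values was 0.992, as a description. Parts of the pattern were shared by other members. Hist1h1a and Hist1h2an were also lower in every EB library than in both ESC libraries. Hist1h1t was also higher in EB replicate 2 (13.3 FPKM in KO, 8.74 in WT) than in EB replicate 1 (5.69 in KO, 2.99 in WT).

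The other divergent pairs had lower values of r. Over all 12 pairs r ran from -0.52 to 0.992 with a median of 0.878, and libraries of the same material share culture and preparation. The lowest was for Hist1h2bq and Hist1h2ao, both near 0. FPKM within a pair was unequal, and the gene models of a pair can differ in length. Hist1h2ae averaged 101 FPKM over the 10 libraries and Hist1h2bg 433, and Hist2h2ac averaged 318 and Hist2h2be 1.29.

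**Figure D4:**
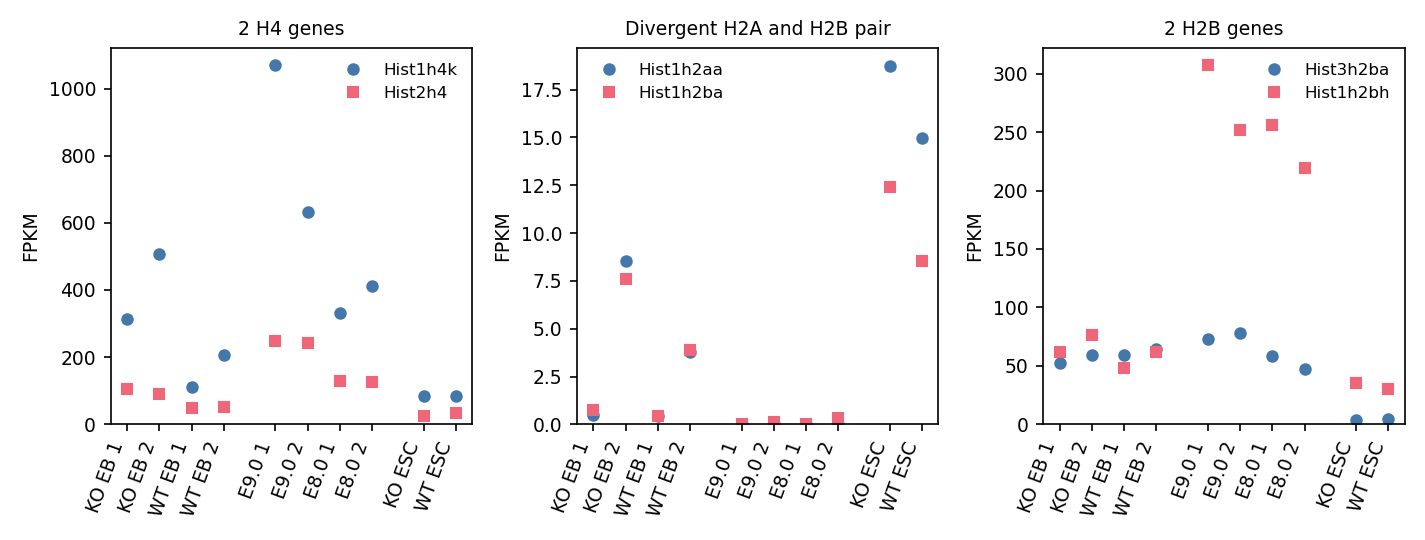
FPKM (vertical axes, from 0) of 6 members in each library (horizontal axes): the H4 genes Hist1h4k and Hist2h4, the divergent pair Hist1h2aa and Hist1h2ba, and the H2B genes Hist3h2ba and Hist1h2bh. The divergent pair is at 8.52 to 18.8 FPKM in ESCs and at most 0.329 in embryos, while Hist1h2bh is at 220 to 307 in embryos and 30.2 to 76.7 elsewhere.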

How the data were processed

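The authors deposited 1 table of FPKM values with 1 column for each of the 10 libraries. Per the labels and methods, 75-base paired reads of rRNA-depleted RNA were aligned with STAR 2.5.2b to GRCm38 and abundance was estimated with Cufflinks 2.2.1 for the annotated strand. FPKM hold no counts, so depth and counting error are unknown. The labels and methods name different depletion kits, and the headers of the E8.0 columns name a later stage, where the labels were followed.

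Of the 8 libraries from EBs and embryos, 2 or more had to reach an FPKM of 1 for a row to be tested (15160 rows, 64 of 69 members). The test was run with limma 3.58.1 in R 4.3.3 on log2(FPKM + 1), which understates changes of low genes. One model held 4 groups, with 4 residual degrees of freedom, a trend on abundance and a variance factor each for EBs and embryos. Tests were two-sided, adjusted by Benjamini-Hochberg over all rows. The authors' Cuffdiff test needs alignments.

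Sequences, coordinates and window uniqueness came from a later GENCODE release of the same build and from RefSeq. Listed genes with no row of their own were not used. Members and lists were chosen with earlier results of these data known. Named were all H1, Hist3 and Hist4 rows, the 3 highest rows of each core class, up to 6 highest and lowest called members of each comparison, 3 highest and lowest ESC ratios, and up to 3 genes of each list with the lowest p. Any other gene was named with its values in view. Alternatives changed the spread, the libraries, the pseudocount, the filter, the scaling, the merged rows and the replicates, and scripts were tested on simulated data.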

Additional observations from a re-analysis of the deposited data

Results flagged for a closer look

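Of 37 members named by rule, 7 had KO over WT differences of opposite sign in the ESC pair and in EBs, with no overlap of the EB genotypes. For 6 of the 7 the log2 ratio in ESCs was at least 0.01 in size. By sign alone, without that minimum, 15 of all 64 tested members met this, or 23.4%, against 17.7% of all tested rows. The difference between the materials was not tested, and the ESC pair has 1 library of each genotype.

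Hist2h4 had a log2 ratio of KO over WT of -0.43 in ESCs and a log2 change of 0.92 in EBs. Hist1h2bj had -0.45 in ESCs and 0.63 in EBs, and Hist1h2ah had -0.94 in ESCs and 0.82 in EBs. Hist2h2ab had -0.11 in ESCs and 0.68 in EBs. Hist1h2bl went the other way, with 0.89 in ESCs and -0.11 in EBs. Hist1h2ae had -0.072 in ESCs and 0.89 in EBs. Hist1h4k was picked up by its sign alone, but its ESC ratio of -5.1e-05 is no difference between the genotypes, and its change in EBs was 1.39. Of these genes, Hist2h4, Hist2h2ab and Hist1h2ae have mostly unique windows.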

How the results depend on the processing

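The median changes of the members kept their sign under each alternative run: 0.26 to 0.50 in KO against WT EBs, 0.40 to 0.46 in E9.0 against E8.0 embryos and -1.06 to -0.91 in WT EBs against embryos when 1 library was left out, and 0.18 for EBs with quantile normalization. Within replicate number 1 and number 2, an alternative chosen after seeing the data, the EB median was 0.45 and 0.33. Counts of members past the threshold moved more, and the cause was not tested. With 1 common spread, 8 members were higher in KO EBs, and 6 were higher and 0 lower at E9.0. This setting had given many false calls in simulated EB data. With only the libraries of the comparison, 19 were higher at E9.0 and 1 was higher in WT EBs than in embryos. The pseudocount of 0.1 also gave 1 higher in WT EBs. The minimum of 5 FPKM left 0 lower at E9.0. Without merged rows 0 were lower at E9.0 and the mean share of H2B was 15.7%. With those rows the share of H2B was 18.2% to 24.5% in single libraries. With only the 41 members of mostly unique windows, 0 were lower at E9.0 and 30 of the 41 lower in WT EBs than in embryos, against 49 of 64. Leaving out 1 library gave 16 to 34 higher and 1 to 2 lower at E9.0, and 16 to 50 lower in WT EBs than in embryos. Over all named members and settings, 74 values lost the threshold and 16 gained it with all libraries of the fit kept, and 65 lost and 6 gained it with 1 library left out.

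Small changes turned in sign. With median scaling, Hist1h4m was at -0.019 at E9.0 and the row of Hist2h2aa1 and Hist2h3c1 at -0.048 in WT EBs against embryos. With quantile normalization the KO against WT changes in EBs were -0.020 (Hist1h1d), -0.11 (Hist1h1a), -0.16 (Hist1h1e), -0.15 (Gm42743 and Hist2h2bb) and -0.012 (Hist3h2a and Trim17). At E9.0 they were 0 (Gm42743 and Hist2h2bb) and -0.016 (Hist1h4m), and in WT EBs against embryos 0.073 (Hist3h2ba), 0.094 (Hist3h2a and Trim17), 0.049 (Hist3h2bb-ps) and -0.20 (Hist2h2aa1 and Hist2h3c1). When 1 library was left out, KO against WT changes in EBs ran from -0.16 to 0.34 (Hist1h1a), -0.10 to 0.25 (Hist1h1e), -0.49 to 0.0076 (Hist2h2aa1 and Hist2h3c1), -0.49 to 0.17 (Hist1h2an) and -0.74 to 1.07 (Hist1h4m). At E9.0 they ran from -0.012 to 0.17 (Gm42743 and Hist2h2bb), -0.21 to 0.33 (Hist1h2an) and -0.22 to 0.25 (Hist1h4m). In WT EBs against embryos they ran from -0.34 to 0.95 (Hist1h1t), -0.10 to 0.059 (Hist3h2ba), -0.16 to 0.035 (Hist3h2a and Trim17), -0.13 to 0.079 (Hist3h2bb-ps) and -0.0016 to 0.091 (Hist2h2aa1 and Hist2h3c1).

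The replicate numbers were not taken as pairs, because each comparison has 2 and no label names a shared batch, although the sample descriptions of the EB libraries share a prefix within each number. Deviations of the same number correlated at 0.415 in EBs and -0.0305 in embryos over all tested rows, and at 0.829 and 0.211 over the members. With the replicate block, 5 members were higher in KO EBs, among them Hist2h4, Hist4h4 and Hist1h2ah, and 39 at E9.0, and 613 of all rows were called in EBs, against 21 without it. With the block and only the libraries of the comparison, 0 members were higher in KO EBs with 4 of all rows called, and 3 were higher and 0 lower at E9.0. FPKM leave the depth unknown.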
